A study of Mus musculus with 131 samples.

Results

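The urea cycle and periportal amino acid genes are 9 genes, *Nags*, *Cps1*, *Otc*, *Ass1*, *Asl*, *Arg1*, *Gls2*, *Hal* and *Sds*, taken by name from the 24397 entries of an expression table of mouse hepatocytes. They were named as a pathway and not selected by a limit on their values, though earlier results of these data were known. Each is 1 entry of the table. A locus is the gene as the table places it on the mouse genome build mm9, with 5000 bp on both sides. *Nags* lies at chr11:102006826-102010842, *Cps1* at chr1:67169600-67277841 and *Otc* at chrX:9829484-9898150. *Ass1* lies at chr2:31325789-31376190, *Asl* at chr5:130487372-130500201 and *Arg1* at chr10:24635012-24647276. *Gls2* lies at chr10:127631690-127647060, *Hal* at chr10:92951512-92979488 and *Sds* at chr5:120926555-120933914. The urea cycle converts ammonia, which is toxic, into urea. NAGS makes the activator of CPS1, and CPS1 and OTC work in mitochondria, while ASS1, ASL and ARG1 complete the cycle in the cytosol. GLS2, HAL and SDS release ammonia from glutamine, histidine and serine. In the liver these enzymes are most abundant near the portal vein, and the ammonia that escapes them is captured as glutamine by cells around the central vein.

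All mice were C57Bl. DKO mice carried floxed *Tet2* and *Tet3*, genes of enzymes that oxidise methylated cytosine, and received at 1 day or 3 weeks of age an AAV8 virus with Cre under the Tbg promoter, which is active in hepatocytes. Injected controls were WT mice that received Cre at the same ages, and both were examined at 15 weeks. RNA-Seq libraries that could be assigned were 1 of uninjected WT at 1 week, 3 at 3 weeks and 3 at 15 weeks, 3 of controls and 3 of DKO injected at 1 day, and 3 of controls and 2 of DKO injected at 3 weeks. RRBS, which reads CpG methylation in restriction fragments, was used from 2 WT mice of 3 weeks. It was also used from 3 controls and 2 DKO mice for each of the injection times. Further RRBS came from 2 samples of hepatocytes without the insulin receptor (InsR KO) and 2 of cultured WT cells labelled as hepatocytes of 1 week. Their values are compared only at the close, but they also enter the estimate of spread in the RRBS tests. RRBS of 1 sample of fat at 25 weeks and 1 of neutrophils at 36 weeks, both WT, enters only the closing values. According to the study's methods the InsR was deleted with the same Cre virus given after birth, and the cultures were grown from liver cells of newborns that had not been sorted. WGBS, which reads methylation across the genome, had 1 library each of newborn WT (1 week), adult WT (15 weeks) and adult DKO (15 weeks, injected at 1 day). H3K27ac and H3K4me1 ChIP-Seq had 1 library each of WT and of DKO injected at 1 day, both at 15 weeks. ATAC-Seq and HNF6 ChIP-Seq had 2 libraries for each genotype. For these the labels give liver as the tissue and a deletion after birth in hepatocytes, with no age, while the study describes them as adult hepatocytes. A single 5hmC library came from WT hepatocytes of 20 days. Hepatocytes were isolated by perfusion, a Percoll gradient and a sort for large cells negative for CD45. Cre acts only in cells that the virus reached, so cells without the deletion may remain in a DKO sample.

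The targeted genes were read first. *Tet2* stood at 2.13, 1.63 and 0.890 FPKM (a fragment count scaled to transcript length and library size) in controls injected at 1 day, and at 4.08, 2.82 and 3.16 FPKM in the DKO. It was therefore higher in the libraries labelled DKO, by 0.79 on the log2 scale (SE 0.20, adjusted p = 0.0173, limma). After injection at 3 weeks the controls had 2.56, 2.08 and 2.99 FPKM and the DKO 1.84 and 0.824, a difference of -0.63 (SE 0.23, adjusted p = 0.108). *Tet3* differed by 0.12 (SE 0.15, adjusted p = 0.612) after injection at 1 day and by -0.47 (SE 0.16, adjusted p = 0.0985) after injection at 3 weeks. The table gives whole genes and not the floxed exons, so these levels do not check the deletion, and DKO is used as the name on the label.

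Across the series, relative sequencing depth of the RNA libraries ranged from 0.753 to 1.06. Of 2745 genes that reach 20 FPKM in some library, 10 to 42 per library were listed at 0, but none of the 9 genes was at 0 in any. The hepatocyte gene *Alb*, which is not one of the 2745, was listed at 0 in 18 of 18 libraries. Another hepatocyte marker, *Serpina1a*, was at 0 in 14 of 18 libraries, among them all libraries of 15 weeks, and reached 2855 FPKM elsewhere. The remaining hepatocyte markers in the table were above 0 in every library, such as *Apoa1* at 4367 to 8657 FPKM. The 7 leukocyte markers summed to at most 1.19 FPKM in the groups of 3 weeks and older. The 1 week library stood apart, with 1675 FPKM summed over 6 erythroid markers against at most 71.9 elsewhere, and 43.5 FPKM of leukocyte markers. The 3 WT libraries of 3 weeks and 1 control injected at 3 weeks (replicate 3) had high *Xist* and Y-linked transcripts at or near 0, and the remaining libraries had the opposite pattern.

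DNA methylation at these loci was lower in adult than in newborn WT, and most tiles of this kind stood higher in the DKO. Of 1277 WGBS tiles of 200 bp with values in both, 419 (32.8%) were at least 35 percentage points lower in adult than in newborn WT, and 0 were at least 35 points higher. The lower tiles are called lost here. Over all tiles of the genome the shares were 1.64% and 0.265%. The depth behind each tile is unknown and each condition has 1 library, so these are counts with no test, and neighbouring tiles are not independent. Of the 418 lost tiles that also had a DKO value, 352 (84.2%) stayed at least 35 points above adult WT in the DKO, against 70.6% of lost tiles of the whole genome. This order depends on the limit, since with 50 points the share was 75.7% at the loci and 78.5% in the genome. Both differences subtract the same adult WT library, so choosing tiles with a low adult value itself raises the share above it in the DKO. Over all tiles of the loci with 3 values the mean was 75.6% in newborn WT, 50.1% in adult WT and 74.8% in the DKO. *Otc*, on the X chromosome, has no tile in either methylation table and is not covered below.

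**Figure D1:**
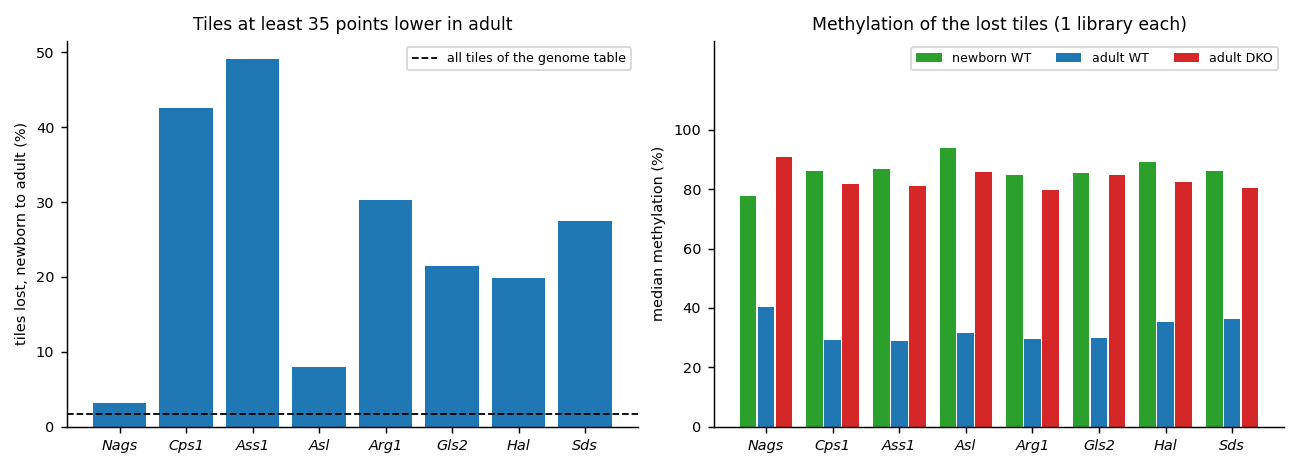
Left, the percent of 200 bp WGBS tiles of each locus that were at least 35 points lower in adult than in newborn WT, with the share of all tiles of the genome as a dashed line (1.64%). Right, the median methylation (%) of those lost tiles in the newborn WT, adult WT and DKO libraries; at every locus the adult WT bar is the lowest of the 3, and at the *Nags* locus it stands for 2 tiles.

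The loss was uneven between the genes. *Ass1*, argininosuccinate synthase, lost 133 of 271 tiles (49.1%) and *Cps1*, carbamoyl phosphate synthetase, 170 of 400 (42.5%). *Arg1*, the arginase that releases urea, lost 30 of 99 (30.3%) and *Sds*, serine dehydratase, 22 of 80 (27.5%). *Gls2*, the liver glutaminase, followed with 23 of 107 (21.5%) and *Hal*, histidine ammonia lyase, with 31 of 156 (19.9%). *Asl*, argininosuccinate lyase, lost 8 of 101 (7.92%), and *Nags*, N-acetylglutamate synthase, 2 of 63 (3.17%). All 8 loci were thus above the share of the genome, and the lowest, *Nags*, rests on 2 neighbouring tiles. The share of lost tiles that stayed high in the DKO ran from 5 of 7 at *Asl* (71.4%) and 16 of 22 at *Sds* (72.7%) to 27 of 30 at *Arg1* (90.0%), with both tiles at *Nags*.

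Gene bodies held most of the change. Introns lost 297 of 726 tiles (40.9%), downstream flanks 57 of 170 (33.5%), exons 47 of 208 (22.6%), upstream flanks 12 of 125 (9.60%), and promoters, here 1000 bp before to 100 bp after the start, 6 of 48 (12.5%). The promoters of *Arg1* and *Gls2* were low in the newborn already. The median promoter tile of *Arg1* had 3.54% in newborn WT, 1.55% in adult WT and 6.25% in the DKO, and that of *Gls2* 3.26%, 0.987% and 3.74%. The 6 lost promoter tiles lay at *Ass1* (3 of 7 tiles), *Hal* (2 of 7) and *Asl* (1 of 6). At *Ass1* the promoter medians were 29.4%, 1.25% and 32.8%, and its lost tiles belong to a stretch of 4 (chr2:31324401-31325200) centred at -1289 to -689 bp from the start. Closer to the start, the *Ass1* tiles under an ATAC peak at -157 bp read 2.09%, 0.624% and 3.29%. The longest unbroken stretch of lost tiles also lay in *Ass1*, where 18 tiles over 3600 bp (chr2:31329801-31333400, in introns from 4111 bp after the start) averaged 77.7% in newborn WT, 20.8% in adult WT and 73.1% in the DKO. The next longest was at *Sds*, 10 tiles over 2000 bp from inside the gene into its downstream flank (chr5:120933201-120935200), at 91.1%, 41.5% and 84.3%.

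**Figure D2:**
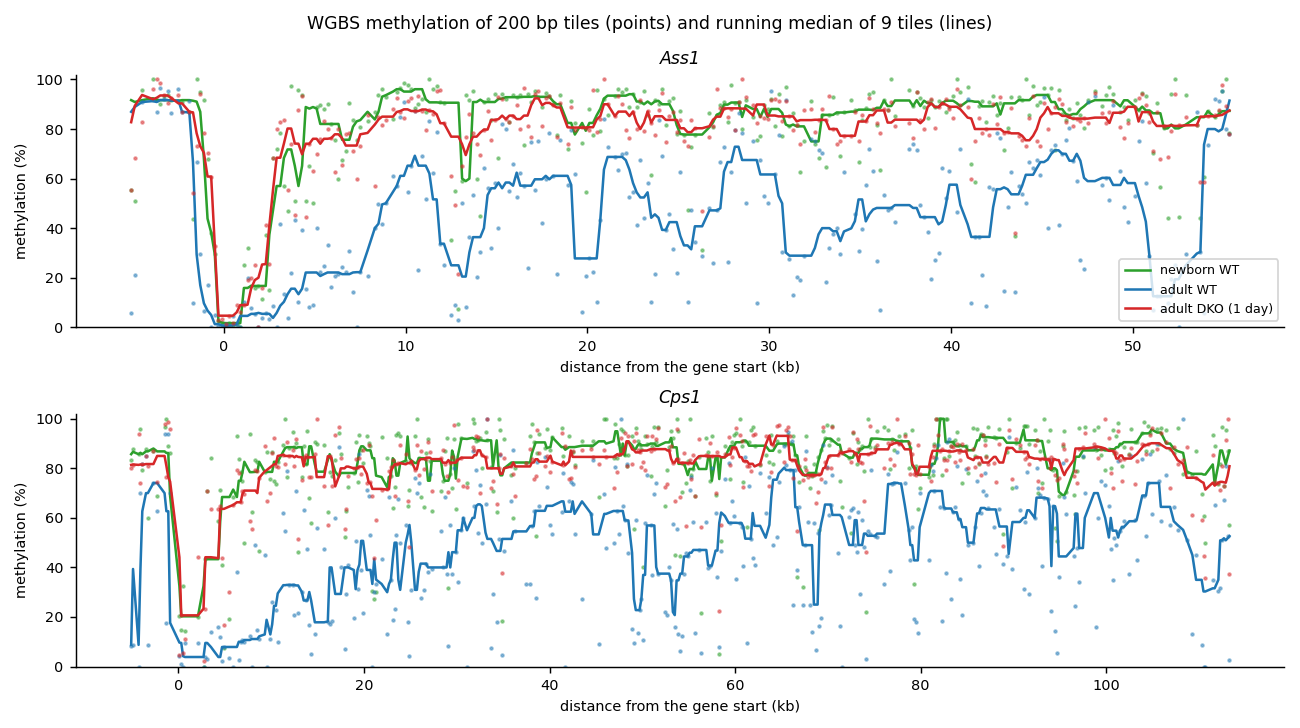
WGBS methylation (%) of the *Ass1* (top) and *Cps1* (bottom) loci against distance from the gene start (kb), with points for single 200 bp tiles and lines for the running median of 9 tiles, in the newborn WT, the adult WT and the DKO library. All 3 lines dip at the start, and along most of the gene bodies the adult WT line runs below the other two.

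The sequences of tiles with large changes show how few CpG sites carry these values. In each, on the strand of the gene and in mm9, capitals mark the CpG sites. The 2 WGBS tiles are introns with 1 CpG each, and they are shown because they held the largest fall of *Cps1* (chr1:67211201-67211400) and of *Arg1* (chr10:24637201-24637400).
Cps1 intron, WGBS: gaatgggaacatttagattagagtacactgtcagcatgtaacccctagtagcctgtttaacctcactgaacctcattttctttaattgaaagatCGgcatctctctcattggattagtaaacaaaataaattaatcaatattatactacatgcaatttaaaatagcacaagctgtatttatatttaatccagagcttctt
Arg1 intron, WGBS: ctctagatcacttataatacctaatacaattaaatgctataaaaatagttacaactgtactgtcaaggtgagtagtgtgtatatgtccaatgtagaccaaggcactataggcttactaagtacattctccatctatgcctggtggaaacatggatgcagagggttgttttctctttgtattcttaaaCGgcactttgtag
The *Cps1* tile read 88.6% in newborn WT, 0% in adult WT and 88.9% in the DKO. The *Arg1* tile read 82.4%, 4.35% and 73.0%. With 1 CpG and an unknown depth, a single tile of this kind is imprecise, and the counts over the locus carry the comparison.

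RRBS measured the same loci in single mice. After deletion at 1 day, 21 of 155 tiles of 100 bp that could be tested were at least 35 points apart with an adjusted p under 0.05 (13.5%, against 1.15% of all tiles tested), and all 21 were higher in the DKO (1.13% of all tiles). Without control replicate 3 the count was 13. *Ass1* had 14 of the 21, *Hal* and *Sds* 2 each, and *Nags*, *Cps1* and *Gls2* 1 each, while *Asl* and *Arg1* had 0 of 19 and 0 of 9 tested. After deletion at 3 weeks, 10 of 147 passed (6.80%, against 0.314%), again all higher (0.297%; 4 on M values, a logit scale), and all 10 were among the 21. They lay in *Ass1* (7), *Hal* (2) and *Sds* (1). Of the 21, 14 lay in a WGBS tile that was lost in adult WT. The depth behind these fractions is also unknown.

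The RRBS tiles on which this rests are shown next, for each gene 1 or 2 with the largest difference among those called, leaving out tiles that overlap untranslated parts. *Ass1* is given by intron tiles chr2:31345501-31345600 and chr2:31331601-31331700, *Hal* by intron tile chr10:92960401-92960500, *Nags* by exon tile chr11:102008401-102008500, *Cps1* by intron tile chr1:67271301-67271400 and *Gls2* by promoter tile chr10:127630701-127630800.
Ass1 intron, 19761 bp after the start: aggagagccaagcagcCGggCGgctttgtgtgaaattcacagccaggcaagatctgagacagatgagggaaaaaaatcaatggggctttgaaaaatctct
Ass1 intron, 5861 bp after the start: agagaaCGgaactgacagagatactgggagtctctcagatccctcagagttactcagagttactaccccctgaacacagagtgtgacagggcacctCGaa
Hal intron: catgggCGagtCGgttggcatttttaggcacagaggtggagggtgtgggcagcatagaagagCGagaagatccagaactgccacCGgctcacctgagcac
Nags exon: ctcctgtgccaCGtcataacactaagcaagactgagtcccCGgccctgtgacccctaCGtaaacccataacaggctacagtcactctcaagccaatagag
Cps1 intron: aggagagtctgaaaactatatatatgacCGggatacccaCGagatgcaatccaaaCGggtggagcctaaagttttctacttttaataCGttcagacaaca
Gls2 promoter: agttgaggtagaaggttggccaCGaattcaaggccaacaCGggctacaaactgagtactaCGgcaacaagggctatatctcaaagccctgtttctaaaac
These tiles hold 2 to 4 CpG sites each.

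At the first *Ass1* tile the controls injected at 1 day had 11.8%, 2.08% and 5.70% methylation, and the DKO 85.8% and 88.1%. The difference was 80.4 points (SE 5.07, adjusted p = 4.11e-05, limma), with no overlap. After injection at 3 weeks the controls had 13.9%, 14.3% and 23.3% and the DKO 86.7% and 71.6% (62.0 points, SE 5.07, adjusted p = 0.00105). The 3 week WT mice lay between, at 44.2% and 36.2%, the age of the later injection. By their animal numbers these are 2 of the mice whose RNA has the *Xist* pattern, so age and sex cannot be told apart where they are set beside the adult controls. At the second *Ass1* tile the 1 day values were 8.33%, 9.52% and 18.0% against 93.4% and 87.5% (78.5 points, SE 9.04, adjusted p = 0.00259). Its 3 week values, 30.6%, 16.7% and 30.2% against 66.1% and 50.0%, did not pass (32.2 points, adjusted p = 0.30).

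At the tiles of the other genes the mean of the DKO was also above that of the controls for both injection times. At the *Hal* tile controls injected at 1 day had 14.5%, 29.0% and 25.8% and the DKO 83.9% and 92.5% (65.1 points, SE 6.89, adjusted p = 0.00161), and at 3 weeks the difference was 52.8 points (adjusted p = 0.0160). The WT mice of 3 weeks had 83.7% and 92.6% there, as high as the DKO. The *Nags* exon tile, 1624 bp after the start, was at 0% in all 3 controls injected at 1 day and at 50.0% and 40.7% in the DKO (45.4 points, SE 5.57, adjusted p = 0.0197). At 3 weeks it had 0% in both controls with a value against 31.8% and 50.0% (40.9 points, adjusted p = 0.0867). The *Cps1* tile was at 55.7%, 63.3% and 49.6% in controls and 90.4% and 92.3% in the DKO injected at 1 day (35.2 points, SE 5.52, adjusted p = 0.00970). The *Gls2* promoter tile, at -940 bp from the start, had 46.7%, 42.4% and 40.1% against 79.7% and 84.1% (38.8 points, SE 7.11, adjusted p = 0.0228). The WGBS tile over it showed no loss, with 81.0% in newborn WT, 80.9% in adult WT and 84.6% in the DKO. The largest difference at *Sds*, in an exon tile 7095 bp after the start, was 72.8 points (SE 9.98, adjusted p = 0.00441), from 2.90%, 14.8% and 11.9% to 80.3% and 85.1%.

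Averaged over all RRBS tiles of a locus with a value in each of the 12 mice, the DKO mice stood above their controls at most loci. At *Ass1* (36 tiles) the 3 controls injected at 1 day lay between 27.3% and 31.0%, the 3 injected at 3 weeks between 26.7% and 29.9%, the WT mice of 3 weeks at 52.9% and 53.3%, the DKO of 3 weeks at 58.1% and 59.0%, and the DKO of 1 day at 63.7% and 64.5%. These 5 sets of mice do not overlap except for the 2 kinds of controls. *Sds* (16 tiles) had 48.0% to 51.9% in controls and 70.0% and 75.3% in the DKO after injection at 1 day, and 49.3% to 53.1% against 63.4% and 68.8% at 3 weeks. *Hal* (9 tiles) had 59.3% to 71.3% against 88.8% and 92.8%, and 59.0% to 62.3% against 89.9% and 94.4%. *Cps1*, with 4 tiles, had 30.6% to 53.2% against 72.9% and 95.5%. At *Arg1* (8 tiles) the groups overlapped after injection at 1 day, 48.9% to 55.7% against 55.2% and 61.8%. *Nags* and *Gls2*, whose tiles lie largely in unmethylated sequence, stayed between 4.84% and 10.3% in every mouse. At *Asl* (16 tiles) the difference was 4.20 points at 1 day and 0.579 points at 3 weeks. The two-sided exact permutation test gave p = 0.1 at 1 day for each of the 8 loci but *Arg1*, and at 3 weeks for *Nags*, *Cps1*, *Ass1*, *Hal* and *Sds*. This is the smallest value that 2 against 3 mice allow.

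**Figure D3:**
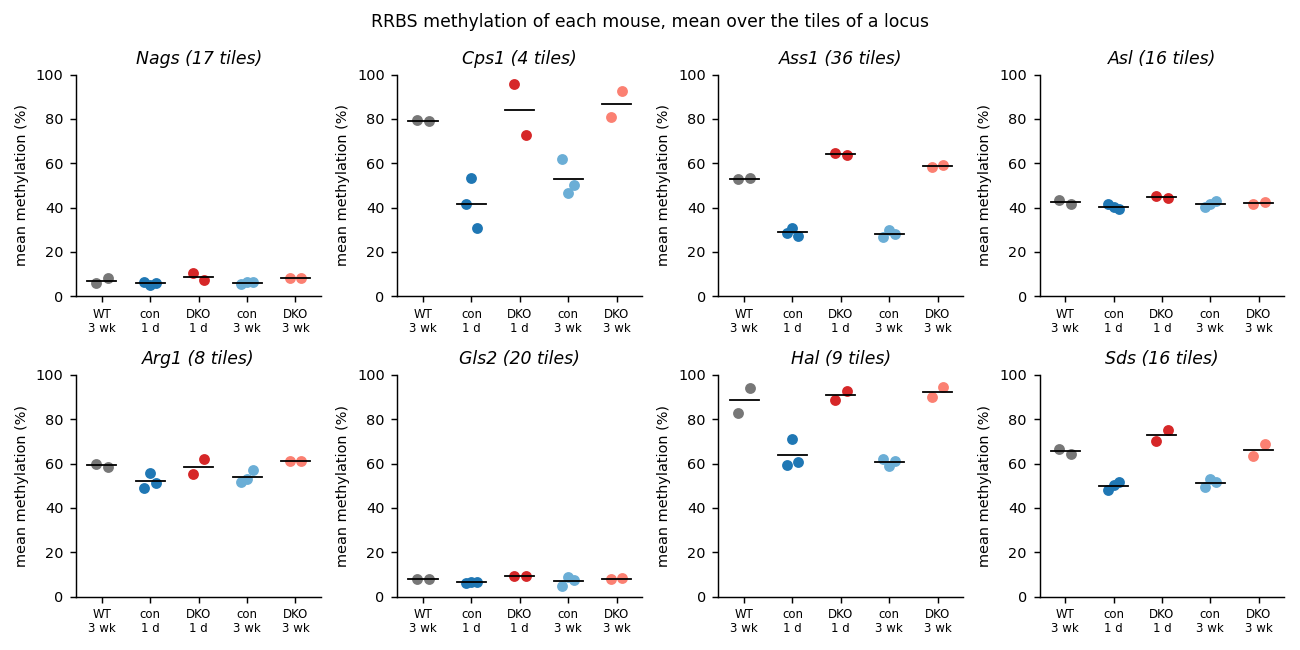
RRBS methylation (%) of each mouse, averaged over the tiles of a locus with a value in all 12 mice; points are mice, lines are group means, and the number of tiles stands in each title. At *Ass1*, *Hal* and *Sds* both DKO groups and the WT mice of 3 weeks sit above all 6 injected controls, and at *Nags* and *Gls2* no mouse exceeds 10.3%.

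Promoters could be read as sequence for 4 of the 9 genes, *Ass1*, *Hal*, *Nags* and *Otc*, from the RefSeq table (build GRCm38.p6), and *Cps1*, *Asl*, *Arg1*, *Gls2* and *Sds* have no entry there. Over 250 bases before to 50 after the start, *Ass1* has 27 CpG sites, *Nags* 14, *Hal* 7 and *Otc* 1, and the median of 32851 promoters is 7. The 250 bases before the start are given for *Ass1* (chr2:31470020-31470269, + strand), the richest in CpG sites, and *Nags* (chr11:102145263-102145512, + strand), whose transcript changed, with CpG sites in capitals. The lost promoter tiles of *Ass1* lie upstream of these bases.
Ass1 promoter: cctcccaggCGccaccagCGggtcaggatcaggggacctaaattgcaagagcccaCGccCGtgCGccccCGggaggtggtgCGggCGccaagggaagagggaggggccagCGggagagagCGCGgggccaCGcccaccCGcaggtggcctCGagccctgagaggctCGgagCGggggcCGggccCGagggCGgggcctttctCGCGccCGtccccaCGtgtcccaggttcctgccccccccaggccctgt
Nags promoter: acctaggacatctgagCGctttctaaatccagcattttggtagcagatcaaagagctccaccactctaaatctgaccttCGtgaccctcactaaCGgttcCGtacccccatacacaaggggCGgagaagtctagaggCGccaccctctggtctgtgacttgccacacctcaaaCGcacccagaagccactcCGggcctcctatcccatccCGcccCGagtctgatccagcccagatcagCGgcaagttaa
Of 8 motifs searched on both strands over the 300 bases, *Nags* holds the nuclear receptor letters AGGTCA at -178 (in 16.3% of all promoters) and the CRE letters TGACG at 31 (20.8%). Both lie on the strand opposite to the gene. *Hal* holds the letters TATAAA of the TATA box at -28 (13.6%), also on the strand opposite to the gene, so not in the direction of transcription. It holds the C/EBP letters TTGCNNAA at -150 (10.8%). *Ass1* and *Otc* hold none of the 8, which also included TGACGTCA (which contains TGACG, 1.79% of promoters), TTGCGCAA (a case of TTGCNNAA, 0.183%), ATTGAT for HNF6 (7.54%) and TGTTCT for the glucocorticoid receptor (19.0%). These are matches of letters, not bound sites.

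The shared peaks of open chromatin lay on sequence that was already low in methylation in newborn WT. The 2 WT libraries of ATAC-Seq shared 16 peaks at the loci, and 0 of the 16 lacked a peak in both DKO libraries (7.34% of shared WT peaks in the genome did). In the other direction 0 of 17 shared DKO peaks lacked a WT peak (9.39%). Counted from single libraries these numbers move. With the other WT library left out, 5 of 23 peaks of WT replicate 2 had no DKO peak (17.7% of its peaks in the genome). The same held for 3 of 20 of WT replicate 1 (16.0%). Without DKO replicate 1 or 2 it was 1 of the 16 (9.36% and 16.8% in the genome). Of the 16, 15 cover a WGBS tile, and none of the 15 lay on a lost one; the peak at *Otc* covers none. The highest was at *Gls2*, at -270 bp from the start, with 58.9 and 32.7 normalized tags in WT and 25.3 and 40.5 in DKO. At *Ass1* the peak at -157 bp had 39.2 and 17.9 tags in WT and 14.5 and 20.9 in DKO, so the genotypes overlapped. *Cps1* had 0 peaks in WT replicate 1, 4 in WT replicate 2 (at most 6.28 tags) and 1 in each DKO library (7.97 and 10.0 tags), both near the start.

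Most lost tiles lay in peaks of the histone marks, and so did most of the other tiles. H3K27ac peaks of WT held 255 of the 419 lost tiles (60.9%) and 443 of the 858 other tiles (51.6%), and H3K4me1 peaks 63.7% and 58.0%. 5hmC peaks of 20-day hepatocytes held 29.6% of the lost and 17.4% of the other tiles. ATAC peaks held 0.239% and 0.477% of the lost tiles in the 2 WT libraries, and 3.15% and 3.85% of the others. The other tiles include those too low in newborn WT to be lost, such as those under the shared ATAC peaks, so these shares do not compare like tiles. At *Ass1* the WT library had 9 H3K27ac peaks with 1262 tags over 47751 bp (26.4 per kb) and the DKO library 3 peaks with 2466 tags over 54258 bp (45.4 per kb), of which 1 spans 51061 bp. Such a difference was general. Of 10072 genes tested in RNA with H3K27ac peaks in both libraries, 89.5% had more summed tags in the DKO, with a median ratio of 1.67. The same held for all 9 loci, also with a median ratio of 1.67. Peaks were called in each library separately, and the marks have 1 library per genotype and no test.

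HNF6, a transcription factor of the liver, had few peaks at the loci. The first *Ass1* tile printed above holds the letters ATTGAT on 1 strand, as 2.12% of all 913286 RRBS tiles do. An HNF6 peak covered it in WT replicate 2 (7.96 tags) and DKO replicate 2 (31.3 tags) and not in replicate 1 of either, so the replicates of a genotype differed. The *Cps1* intron WGBS tile printed above also holds these letters on 1 strand. HNF6 peaks covered that tile in both DKO libraries (5.98 and 22.3 tags) and in neither WT library, without a test. The 4 libraries differ in how many peaks were called, from 4387 to 34665. At *Cps1* they had 2 and 5 peaks in WT and 6 and 18 in DKO, and at *Asl* 0 in all 4.

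In expression the 9 genes covered a wide range. In adult WT of 15 weeks *Cps1* led with 1132 FPKM ± 183 (SD, n = 3), rank 35 of 11166 genes tested. *Arg1* (441 ± 66.4) and *Ass1* (423.6 ± 76.4) followed and overlapped each other. Next came *Asl* (269 ± 15.8), *Sds* (189 ± 60.4), *Gls2* (144 ± 26.2), *Otc* (120.2 ± 9.02) and *Hal* (91.5 ± 28.0), and each of these overlapped its neighbour. *Nags* was lowest with 26.9 ± 3.39 FPKM, rank 1549, and overlapped no other. FPKM is a level per transcript length, so the order can be read between genes, with 1 limit. *Gm5424*, an entry on chromosome 10 noticed after its values were seen, followed *Ass1* across the 18 libraries (r = 0.999 on log2(FPKM + 1)) at 191% to 203% of its level. How reads were split between the entries is not given in the sources used here, so the level of *Ass1* is uncertain. In all bulk values, fewer cells of a type and less RNA per cell cannot be told apart.

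**Figure D4:**
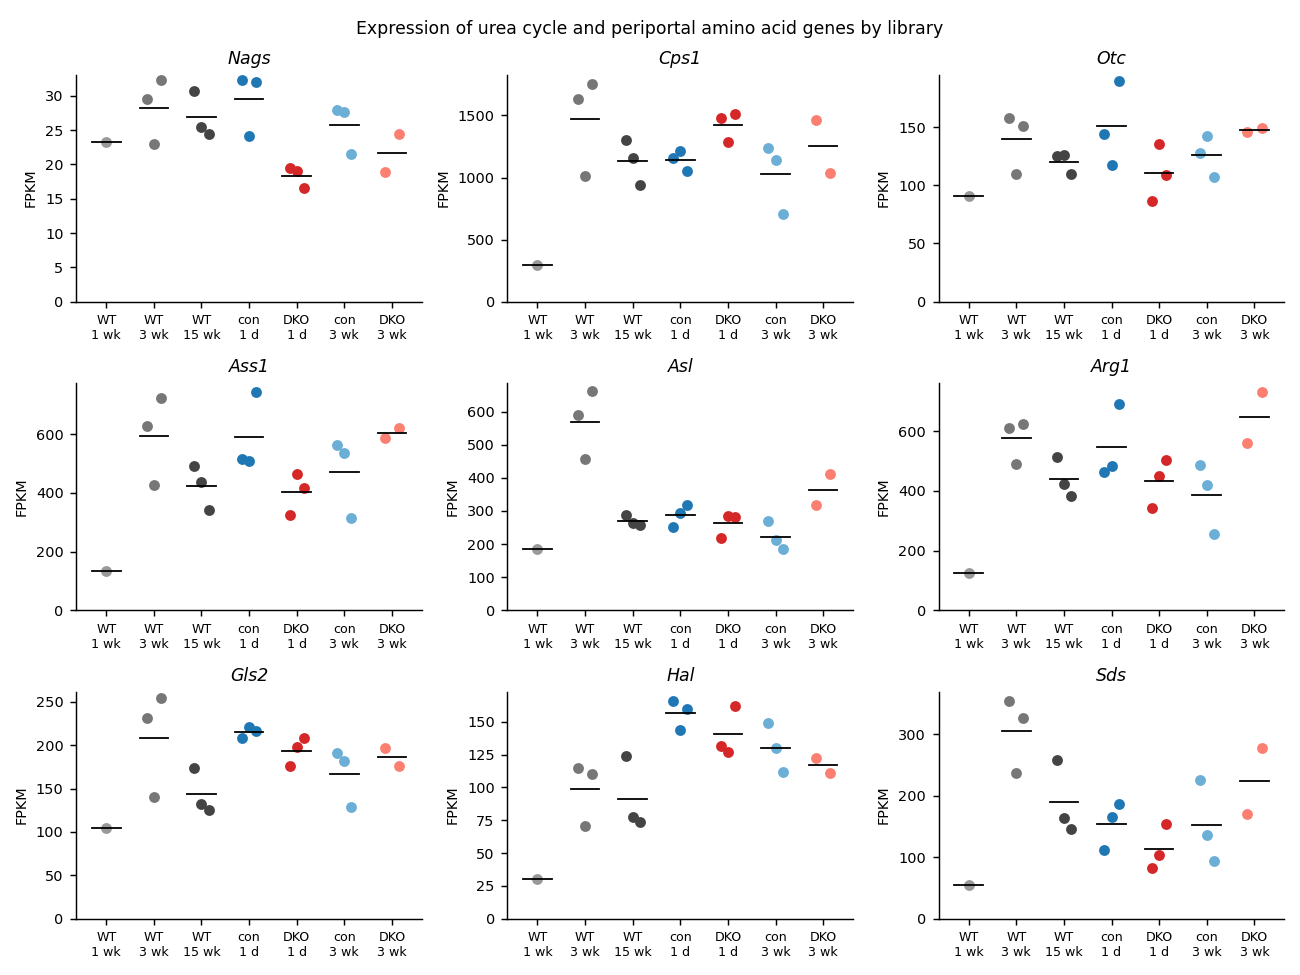
FPKM of the 9 genes in each of the 18 RNA libraries, with points for libraries and lines for group means, for uninjected WT at 1, 3 and 15 weeks, injected controls (con) and DKO by age at injection. In the *Nags* panel the 3 DKO libraries of 1 day, at 16.6 to 19.5, lie under all WT and control libraries of 15 weeks, at 21.6 to 32.3.

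Deletion at 1 day changed 1 of the 9 genes at an adjusted p under 0.05 (limma on log2(FPKM + 1)), when 20.0% of 11166 genes passed, 4.33% higher and 15.6% lower. This was *Nags*. Its controls had 32.3, 24.1 and 32.0 FPKM and the DKO 19.5, 19.1 and 16.6, a fall to 0.639 of the control level (log2 difference -0.65, SE 0.16, adjusted p = 0.0158). The groups did not overlap, but the call was lost when control replicate 1, control replicate 3 or DKO replicate 3 was left out (adjusted p of 0.0575, 0.0767 and 0.0613). The difference was -0.49 with median-ratio scaling and -0.40 with quantile normalization (adjusted p of 0.0137 and 0.0332). Of the 9 differences 8 were below 0, with *Asl* and *Gls2* turning to 0.02 and 0.0066 under median-ratio scaling, and their median was -0.33. The median over all genes was -0.11 and becomes 0 with that scaling, which called 1332 genes higher and 1453 lower. Markers that moved with these groups were those of fetal hepatocytes (4 genes, 2.98 to 5.98 FPKM summed in the DKO against 0.418 to 0.561), erythroid cells (13.5 to 16.9 against 54.4 to 71.9) and Kupffer cells and macrophages (1.27 to 2.42 against 3.03 to 5.13). Their part in the results was not tested. No overlap between groups was seen for 4 of the 9, and 40.5% of all genes had no overlap.

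The other mitochondrial steps did not pass. *Cps1* had 1159, 1216 and 1055 FPKM in controls and 1482, 1284 and 1510.0 in the DKO, the only positive difference (0.32, SE 0.24, adjusted p = 0.384), with no overlap. *Otc* had 144, 118 and 190.2 FPKM against 86.6, 135 and 109 (-0.44, SE 0.20, adjusted p = 0.136). *Cps1* and *Otc*, which act in sequence, thus pointed in opposite directions without passing.

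In the cytosolic steps *Ass1* had 515, 509.9 and 744 FPKM in controls and 324, 464 and 417 in the DKO (-0.55, SE 0.26, adjusted p = 0.151). The libraries did not overlap. *Asl* had 251, 294 and 318 FPKM against 219, 285 and 282 (-0.14, SE 0.18, adjusted p = 0.634), and *Arg1* 462, 485 and 690.6 against 342, 451 and 504 (-0.33, SE 0.24, adjusted p = 0.360). The 95% interval for *Ass1* ran from -1.10 to 0.01, so a fall by as much as 1.10 on the log2 scale is within it.

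None of the 3 ammonia-releasing enzymes passed. *Gls2* had 208, 220.5 and 216 FPKM in controls and 175, 198 and 208 in the DKO (-0.15, SE 0.21, adjusted p = 0.655). *Hal* had 166, 144 and 159.6 FPKM against 132, 127 and 162 (-0.16, SE 0.21, adjusted p = 0.634). *Sds* had 112, 165 and 186 FPKM against 81.8, 103 and 154 (-0.46, SE 0.34, adjusted p = 0.369), with the widest interval, -1.20 to 0.28.

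**Figure D5:**
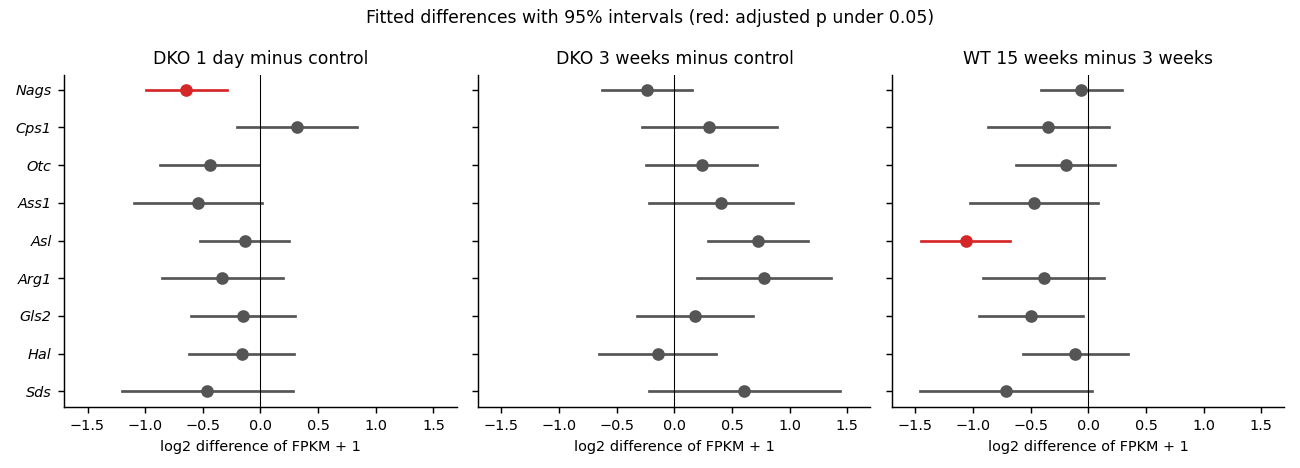
Fitted log2 differences of FPKM + 1 with 95% intervals from limma for DKO minus injected control after injection at 1 day and at 3 weeks, and for WT of 15 weeks minus 3 weeks; red marks an adjusted p under 0.05. Only *Nags* at 1 day (-0.65) and *Asl* with age (-1.07) are red.

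Deletion at 3 weeks changed 0 of the 9 genes by limma, with 5.25% of all genes passing, 0.905% higher and 4.34% lower, and 2 of the 9 had an unadjusted p under 0.05, as did 25.7% of all genes. These were *Asl* and *Arg1*, both higher. *Asl* had 268, 212 and 184 FPKM in controls and 318 and 412 in the DKO (0.72, SE 0.20, adjusted p = 0.0528). *Arg1* had 487, 419.5 and 256 FPKM against 562 and 732 (0.78, SE 0.27, adjusted p = 0.0985). With scaling by the median ratio of genes, which moves the median of all genes from -0.07 to 0, both passed (adjusted p of 0.00983 and 0.0374), as did 11.7% of all genes. *Ass1* had 564, 535 and 313 FPKM against 586 and 621 (0.40, SE 0.29, adjusted p = 0.395), and *Otc* 128, 143 and 107 against 146 and 149 (0.24, SE 0.22, adjusted p = 0.527). In all 4 genes the groups did not overlap, and 48.3% of all genes had no overlap in this comparison. Control replicate 3, the library with the *Xist* pattern, was the lowest control for all 9 genes. Without it *Asl* and *Arg1* differed by 0.60 and 0.50 (adjusted p of 0.140 and 0.266), and *Ass1* by 0.13. The 6 endothelial markers summed to 10.9 to 22.8 FPKM in the DKO and 3.81 to 10.2 in the controls, and the hepatocyte markers to 17005 to 18720.2 and 13766 to 15769. The part of these markers was not tested.

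*Cps1* had 1237, 1139 and 706 FPKM in controls injected at 3 weeks and 1463 and 1037 in the DKO (0.30, SE 0.27). *Nags*, which fell after deletion at 1 day, had 28.0, 27.6 and 21.6 against 18.9 and 24.4 (-0.24, SE 0.18, adjusted p = 0.427). *Gls2*, *Hal* and *Sds* differed by 0.18, -0.15 and 0.61 (adjusted p of 0.662, 0.735 and 0.338), each with overlapping libraries.

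The effects of the 2 injection times were compared directly. For 0 of the 9 genes did the effect at 1 day minus the effect at 3 weeks pass by limma (5.36% of all genes, 2.33% higher and 3.04% lower), and 4 had an unadjusted p under 0.05, as did 29.8% of all genes. The difference was -0.86 for *Asl* (SE 0.27, adjusted p = 0.0654), -1.11 for *Arg1* (SE 0.36, adjusted p = 0.0739), -0.95 for *Ass1* (SE 0.39, adjusted p = 0.123) and -0.68 for *Otc* (SE 0.30, adjusted p = 0.151). Permuting the time of injection among DKO and among control mice gave exact p values of 0.0200, 0.0300, 0.0550 and 0.0750. After adjustment over all genes none of the 4 passed, though *Asl* did without DKO replicate 2 of 1 day (adjusted p = 0.0459), and the difference for *Nags* was -0.41 (SE 0.25, adjusted p = 0.282).

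Injection itself was read by setting the controls beside uninjected WT of 15 weeks. No gene of the 9 passed by limma for either injection time (0.00% and 0.385% of all genes did, the latter 0.260% higher and 0.125% lower), while *Hal* and *Gls2* at 1 day and *Hal* at 3 weeks had an unadjusted p under 0.05, as did 7.66% and 8.58% of all genes. *Hal* had 124, 77.2 and 73.4 FPKM in uninjected WT, under all 3 controls of 1 day (0.81, SE 0.21, adjusted p = 0.266). *Gls2* had 174, 132 and 126 FPKM, also under all 3 (0.59, SE 0.21, adjusted p = 0.458). *Ass1*, at 492, 438 and 341 FPKM in uninjected WT, was likewise under all 3. These were 3 of the 9 genes, and 18.9% of all genes had no overlap in this comparison. Between controls of 1 day and uninjected WT, 5 marker lists did not overlap, those of cholangiocytes (12.9 to 21.2 against 6.05 to 8.22 FPKM summed), Kupffer cells and macrophages (3.03 to 5.13 against 0.817 to 1.48), endothelial cells (5.95 to 9.03 against 2.44 to 5.03), erythroid cells (54.4 to 71.9 against 41.8 to 47.4) and fetal hepatocytes (0.418 to 0.561 against 1.10 to 1.32). For controls of 3 weeks this held for fetal hepatocytes alone (0.605 to 0.919), and the part of these markers was not tested. These controls are also the baseline of the comparison with the DKO.

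With age, *Asl* was the only one of the 9 to pass between WT of 3 and 15 weeks, when 33.3% of all genes passed, 24.0% higher and 9.32% lower. It stood at 589, 457 and 663 FPKM at 3 weeks and at 287, 264 and 256 at 15 weeks (-1.07, SE 0.18, adjusted p = 0.000519). All 9 differences were below 0, with a median of -0.39 against 0.15 over all genes, of which 43.5% had no overlap between ages. With median-ratio scaling, which moves the median of all genes to 0.02, 4 of the 9 passed (34.6% of all genes), and with quantile normalization 6 (36.4%). The next were *Sds* (-0.71, SE 0.34, adjusted p = 0.130) and *Gls2* (-0.50, SE 0.21, adjusted p = 0.0829), which passed without the second library of 3 weeks (adjusted p = 0.0056). The 3 libraries of 3 weeks have the *Xist* pattern and the 3 of 15 weeks the Y-linked pattern, so age and sex cannot be told apart. Fetal hepatocyte markers summed to 369 to 478 FPKM at 3 weeks and 1.10 to 1.32 at 15 weeks, and endothelial markers to 12.4 to 21.4 and 2.44 to 5.03. Kupffer cell and macrophage markers summed to 4.18 to 10.96 FPKM at 3 weeks and 0.817 to 1.48 at 15 weeks, and erythroid markers to 13.9 to 20.2 and 41.8 to 47.4. The part of these markers was not tested. Against the single 1 week library, each WT library of 3 weeks was at least 1 log2 unit higher for *Cps1*, *Ass1*, *Asl*, *Arg1*, *Hal* and *Sds*, as for 1.78% of all genes (5.95% were lower). The mean was 4.81 times higher for *Cps1* (296 FPKM at 1 week) and 5.38 times for *Sds* (55.3 FPKM). At 15 weeks this held for the same genes without *Asl* (5.74% of all genes, with 8.62% lower), while *Nags* was 1.14 times its 1 week level of 23.3 FPKM. The erythroid and leukocyte markers of the 1 week library, given above, move with this comparison. So do those of fetal hepatocytes, at 13263 FPKM summed, and of cholangiocytes, at 121 against 5.24 to 9.43 at 3 weeks and 6.05 to 8.22 at 15 weeks. Their part in it was not tested.

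Genes around the cycle were taken as lists, to be read against the 15.6% lower and 4.33% higher of all genes at 1 day and the 4.34% and 0.905% at 3 weeks. Of 14 tested genes of urea cycle transport and supply, 7 fell and 0 rose after deletion at 1 day, and 0 passed at 3 weeks. *Slc25a22*, a mitochondrial glutamate carrier, fell from 56.1, 66.4 and 78.3 FPKM to 26.4, 24.3 and 25.1 (-1.36, SE 0.26, adjusted p = 0.00381). *Car5a*, the mitochondrial carbonic anhydrase that supplies bicarbonate to CPS1, fell by 1.09 (SE 0.16, adjusted p = 0.000635), and *Got1*, a cytosolic aspartate aminotransferase, by 1.19 (SE 0.29, adjusted p = 0.0129). The median of the list was -0.53, beside -0.11 over all genes.

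Of 12 genes of histidine, serine, threonine and glycine breakdown 0 passed at 1 day, and at 3 weeks 1 rose, *Sdsl*, a paralog of *Sds* (0.84, SE 0.22, adjusted p = 0.0464). Of 24 genes of other amino acid breakdown 10 fell and 2 rose at 1 day. *Oat*, ornithine aminotransferase, fell from 264, 126 and 288 FPKM to 11.1, 13.7 and 14.9 (-3.91, SE 0.42, adjusted p = 3.62e-05), *Prodh*, proline dehydrogenase, by 2.68 (SE 0.17) and *Hpd*, of tyrosine breakdown, by 1.25 (SE 0.24). *Oat* was also the 1 gene of this list that passed at 3 weeks, where it fell by 1.98 (SE 0.47, adjusted p = 0.0326).

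Of 12 perivenous markers, genes high around the central vein, 8 fell at 1 day and 5 at 3 weeks, and 0 rose. *Glul*, glutamine synthetase, which captures the ammonia that the urea cycle leaves, fell from 186, 76.7 and 184 FPKM to 9.76, 11.8 and 11.6 (-3.53, SE 0.57, adjusted p = 0.00102) and after injection at 3 weeks from 89.0, 103 and 606 to 29.9 and 33.3 (-2.46, SE 0.63, adjusted p = 0.0417). *Cyp2e1* fell by 3.74 (SE 0.35) at 1 day. Of 9 periportal markers outside the 9 genes, 3 rose and 1 fell at 1 day, and 1 rose and 1 fell at 3 weeks. *Ctsc* rose by 1.57 (SE 0.26) and *Cdh1*, E-cadherin, by 1.15 (SE 0.22) at 1 day, and *Pigr*, the polymeric immunoglobulin receptor, fell by 1.95 (SE 0.20). At 3 weeks *Pigr* fell by 1.69 (SE 0.23). Among regulators named for these genes, *Cebpb* fell by 0.89 (adjusted p = 0.00281) and *Hnf4a* fell by 0.64 (adjusted p = 0.0362) at 1 day.

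As a description of pattern, the 2 genes most correlated with each of the 9 were read over the 18 libraries on the log2 scale. *Ass1* and *Arg1* were among each other's nearest (r = 0.952), and *Ass1* was also among those of *Gls2* (r = 0.803). *Otc* went with *Sdhb* (0.923) and *Idh3b* (0.900), *Cps1* with *Rgl3* (0.915) and *Aass* (0.894), *Hal* with *Pnkd* (0.883) and *Aass* (0.880). *Nags* went with *Arl13b* (0.908), *Asl* with *B4galnt1* (0.901), *Sds* with *Tsc22d3* (0.880) and *Gls2* with *Amdhd1* (0.890), the enzyme after HAL and urocanase in histidine breakdown. The libraries share groups and sequencing depth, and the 1 week library lies far from the rest for most of these genes.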

How the data were processed

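Hepatocytes of C57Bl mice were profiled by RNA-Seq, RRBS, WGBS, ChIP-Seq, ATAC-Seq and 5hMeDIP-Seq, with mm9 as the build. The authors deposited FPKM values per gene, made with TopHat2 and Cufflinks. They deposited the fraction of methylated CpG readings per tile after BSMAP (version 2.74 in the submitters' notes), without coverage, and multiplication to percent was done here. Peak lists were deposited by the authors with a normalized tag signal and a peak score from HOMER, after Bowtie2 (2.2.4). Counting of reads shared between genes is not given in the sources used here.

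The members and lists were chosen with earlier results of these data known. Named genes are the members, up to 3 called genes a list with the largest change, and the 2 most correlated genes a member. The 11166 genes that averaged 1 FPKM or more were tested on log2(FPKM + 1) with limma 3.58.1 (R 4.3.3) in 1 fit of all groups, with a trended prior and Benjamini-Hochberg adjustment. RRBS tiles with at least 2 mice a group were tested by limma on percent, and a call also needed 35 points. The spread in these tests was pooled over all hepatocyte groups, with the WT mice of 3 weeks, the InsR KO and the cultured samples included. Single values were compared by exact permutation tests (scipy 1.17.1), two-sided. Tests were tested on simulated data. Expression and RRBS columns carry a separate animal number for each replicate. Of 24 expression and 61 RRBS columns, 49 were not used, because their names fit no sample or several. RRBS columns that carry an animal number only were assigned through the same number in the expression table, a link that rests on the numbers alone. Some items of the lists and tiles are not reported here.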

Additional observations from a re-analysis of the deposited data

Results flagged for a closer look

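The effect of the deletion on *Ass1* was of opposite sign at the 2 injection times, with every DKO library of 1 day under its controls and every DKO library of 3 weeks above its controls. The difference of the effects was -0.95 on the log2 scale (SE 0.39, adjusted p = 0.123 by limma, exact permutation p = 0.0550), so it did not pass. Controls of 1 day also stood above uninjected WT of 15 weeks (492, 438 and 341 FPKM), which the DKO of 1 day (324, 464 and 417) overlapped.

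RRBS of samples outside the comparisons also covered the tiles called at 1 day. These tiles were chosen with the values of the controls injected at 1 day, so the controls injected at 3 weeks are the comparison. Hepatocytes of InsR KO mice (2 samples) averaged 37.9% over 16 tiles, against 18.7% in those controls (16.2% to 22.2%). Cultured liver cells (2 samples) averaged 78.9% over 17 tiles, against 21.2%. Fat had 74.0% over 20 tiles, against 20.5%, and neutrophils 87.8% over 18 tiles, against 21.2%, with 1 sample each.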

How the results depend on the processing

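Of the values recomputed under alternatives, 99 that answer a comparison kept their direction and side of the threshold (counts within 1.5 times) and 23 moved. Of the values for single genes, 396 stayed, 16 came to pass, 3 no longer passed and 8 reversed; except where an alternative's construction shows it, the cause was not tested. Median-ratio scaling called 2 of the 9 genes after deletion at 3 weeks (11.7% of all genes) and 4 between 3 and 15 weeks (34.6%). It called 2 for the difference of the effects, where 969 of 11166 genes were higher and 1274 lower. It turned *Asl* and *Gls2* after deletion at 1 day to 0.022 and 0.0066. Without the trended prior 1 gene passed at 3 weeks. Between 3 and 15 weeks, quantile normalization called 6 (36.4% of all genes) and a fit of only these groups 2. For that fit and the one without the trended prior the share of all genes is not given here. The exact permutation test, run on the 9 genes without adjustment, called 0 at 1 day and 0 with age, where 3 against 3 libraries cannot go below 0.1. For the difference of the effects it called 2, and 29.8% of all genes had an unadjusted limma p under 0.05 there. Leaving out 1 library gave 0 to 1 calls at 1 day, 1 to 2 with age and 0 to 1 for the difference. It moved *Gls2* at 3 weeks from -0.00054 to 0.29 (-0.00054 also with libraries of 1 sex pattern only), *Nags* with age from -0.20 to 0.037 and *Hal* with age from -0.35 to 0.022. RRBS calls at 3 weeks were 4 on M values, and those at 1 day 13 to 23 when 1 mouse was left out. A limit of 50 points left 219 lost WGBS tiles (17.1% against 0.677% of the genome), of which 75.7% stayed high in the DKO (78.5% of the genome), and a limit of 25 points gave 591 (46.3% against 3.79%). An overlap of 100 bp gave 1 of 9 WT ATAC peaks without a DKO peak (13.7% in the genome). Leaving out 1 ATAC library gave 1 to 5, with the shares given above. No paired analysis was possible because the columns carry animal numbers and not the replicate numbers of the labels.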
